A study of Mus musculus with 2 samples.

Results

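The genes described here are the perineuronal net and critical period genes Acan, Bcan, Ncan, Vcan, Hapln1, Hapln4, Tnr, Ptprz1, Otx2 and Lynx1. They were taken by symbol, 10 of the 21951 protein-coding genes of GENCODE M21, and each was read over a window of the gene record and 10 kb to either side. The tissue was frontal cortex from females, 14 days old and with no treatment labelled, of B6CASTF1/J, an F1 cross of C57BL/6J and CAST/EiJ, profiled by DNase-seq. There were 2 libraries, labelled biological replicates 1 and 2, with separate biosamples under 1 donor label. Both are also marked 3x without a key, so it is not known whether animals were pooled, and part of the difference between the libraries may be technical. DNase I cuts accessible DNA, a peak is a site of dense cutting, and a footprint is a short stretch inside it that is protected from cutting. The windows of the 10 genes held 62 of 93641 peaks and 142 of 234094 footprints in replicate 1, and 40 of 66196 peaks and 83 of 154015 footprints in replicate 2.

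Perineuronal nets are sheaths of extracellular matrix that form around neurons, above all around fast-spiking parvalbumin interneurons, as cortical critical periods for experience close. Hyaluronan chains form the backbone, chondroitin sulfate proteoglycans of the lectican family bind them with the help of link proteins, and tenascin-R ties the lecticans together. Ptprz1 encodes a receptor-type phosphatase that is also made as a secreted proteoglycan. Otx2 is a homeodomain factor that parvalbumin cells take up through the net, and Lynx1 is a membrane-tethered brake on nicotinic acetylcholine receptors. Several of these genes are used by glia as well as by neurons.

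The sequences printed next hold the widest footprints of the 10 genes and the promoter of Ptprz1, the gene with no peak away from its start sites. For Bcan, Acan and Hapln1 each is the strongest peak away from start sites, at chr3:87987041-87987200 (minus strand), chr7:79080881-79081040 (plus strand) and chr13:89548341-89548500 (plus strand). For Ncan, Tnr and Ptprz1 each is the part of the strongest promoter peak before the gene's start, with the first 19 transcribed bases for Ncan, at chr8:70120855-70120980 (minus strand), chr1:159523601-159523768 (plus strand) and chr6:22875202-22875501 (plus strand). They are read 5′ to 3′ on the gene's strand from RefSeq's GRCm38.p6 genome, and capitals mark bases inside a footprint in both libraries.
Bcan: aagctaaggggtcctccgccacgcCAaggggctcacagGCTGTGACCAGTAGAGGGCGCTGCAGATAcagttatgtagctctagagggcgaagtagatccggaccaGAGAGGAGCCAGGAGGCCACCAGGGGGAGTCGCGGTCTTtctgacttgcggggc
Acan: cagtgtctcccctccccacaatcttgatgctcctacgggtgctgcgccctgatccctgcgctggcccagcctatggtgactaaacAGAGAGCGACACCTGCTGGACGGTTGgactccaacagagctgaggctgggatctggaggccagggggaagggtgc
Hapln1: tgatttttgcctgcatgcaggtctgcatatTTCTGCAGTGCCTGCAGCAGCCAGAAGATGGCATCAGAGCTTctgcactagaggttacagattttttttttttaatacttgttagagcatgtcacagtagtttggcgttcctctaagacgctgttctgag
Ncan: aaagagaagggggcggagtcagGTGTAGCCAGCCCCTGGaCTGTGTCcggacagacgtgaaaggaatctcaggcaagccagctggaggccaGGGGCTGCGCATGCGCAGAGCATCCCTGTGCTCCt
Tnr: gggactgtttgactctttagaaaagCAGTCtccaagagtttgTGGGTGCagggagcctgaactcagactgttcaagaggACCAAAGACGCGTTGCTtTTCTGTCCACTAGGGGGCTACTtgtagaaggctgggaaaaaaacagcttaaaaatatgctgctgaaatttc
Ptprz1: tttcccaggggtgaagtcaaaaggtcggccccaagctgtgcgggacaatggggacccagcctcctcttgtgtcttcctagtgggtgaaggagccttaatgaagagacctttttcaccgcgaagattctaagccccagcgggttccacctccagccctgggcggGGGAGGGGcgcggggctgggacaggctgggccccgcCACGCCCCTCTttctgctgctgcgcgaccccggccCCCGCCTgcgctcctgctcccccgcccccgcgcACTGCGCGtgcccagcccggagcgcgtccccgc

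A peak lay at the promoters of Ncan, Vcan, Hapln1, Tnr, Ptprz1 and Lynx1 in both libraries, of Bcan in replicate 1, and of Acan, Hapln4 and Otx2 in neither. A promoter peak is one whose midpoint lies within 500 bp of a start site (TSS) annotated for that gene. The share, 6 of 10 genes in both libraries, stood beside 58.2% of all protein-coding genes, and is near that background. In replicate 1 the count was 7 of 10, beside 63.2%, and in replicate 2 it was 6 of 10, beside 58.6%. With the stricter of the 2 deposited peak lists it was again 6 of 10 in both libraries, beside 51.8%.

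Promoter strength, the deposited depth-normalized signal of a peak, lay under the median of all promoter peaks at most of these genes. Ncan had 4.12 in replicate 1 and 2.48 in replicate 2, above 70.9% and 66.6% of promoter peaks in those libraries. It was the sole member, 1 of 10, above the median promoter peak of both libraries, which was 2.69 over 13883 genes and 1.86 over 12866 genes. The median of the members with a promoter peak was 1.52 in replicate 1 (7 genes) and 1.27 in replicate 2 (6 genes). In bulk tissue, fewer cells with an open site and a less open site in each cell cannot be told apart.

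**Figure D1:**
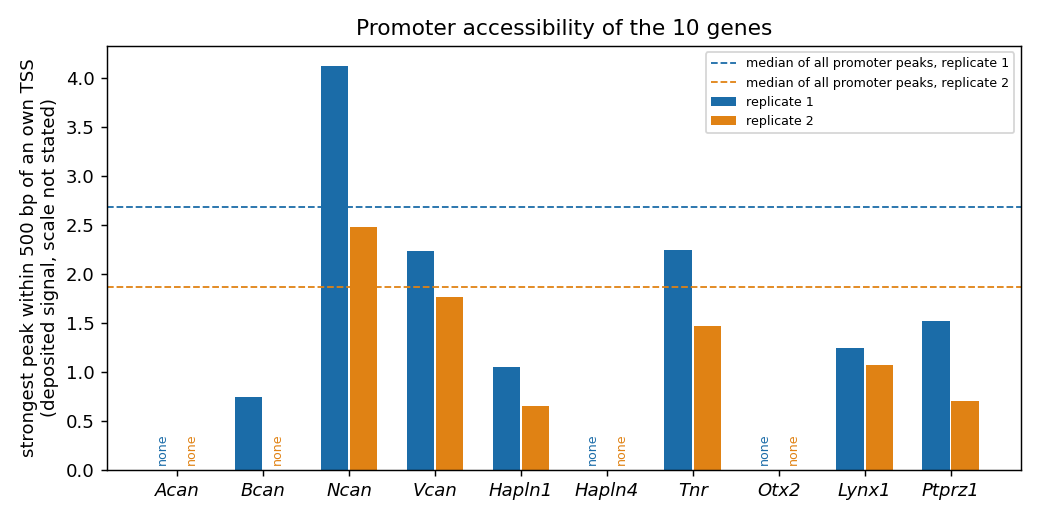
Strongest peak within 500 bp of an own TSS for each of the 10 genes (horizontal axis), as deposited signal (vertical axis), with 1 bar per library and dashed lines at the median of all promoter peaks. Ncan, at 4.12 and 2.48, stands above both lines, and Acan, Hapln4 and Otx2 have no promoter peak in either library.

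Among the lecticans, the aggregating proteoglycans of the net, Ncan (ENSMUSG00000002341.8) had an accessible promoter and a compact set of sites around it. Its promoter peak covered chr8:70120761-70120980, with 3 footprints in each library. A site in intron 1, 2002 bp from the TSS, had 1.43 in replicate 1 and 1.35 in replicate 2. Upstream of Ncan, sites at chr8:70128501-70128720 and chr8:70129361-70129620 had 1.31 and 1.44 in replicate 1 and 0.986 and 1.15 in replicate 2. Both are nearer to the start of the neighbour Nr2c2ap than to that of Ncan. Away from start sites, Ncan had 5 peaks in replicate 1 and 4 in replicate 2, a mean of 9.42 per 100 kb of window, against a median of 2.25 over all protein-coding genes. Of these, the intron 1 site alone had the Ncan start as its nearest, and the rest were nearer to that of Nr2c2ap or Hapln4.

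Bcan (ENSMUSG00000004892.13), which encodes brevican, had the strongest site of the 10 genes away from a promoter, and it lay behind the gene. This site, 410 bp past the 3′ end of the gene record, had 3.45 in replicate 1 and 3.25 in replicate 2. It exceeded 93.5% and 96.2% of all peaks in those libraries. The Bcan promoter had 0.737 in replicate 1, in a peak at chr3:88000281-88000339 in sequence of 76.3% GC, and no peak in replicate 2. The authors' false discovery rate (FDR) track gave a similar picture, with 205 bases below 0.05 around the Bcan start sites in replicate 1 and 0 in replicate 2. The 5 peaks of Bcan away from start sites in replicate 1 thus stand against 1 in replicate 2, and the site behind the gene is the one that both libraries share.

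Acan (ENSMUSG00000030607.7), which encodes aggrecan, the lectican most used to mark nets, had no promoter peak in either library, and its strongest site lay in intron 1. That site, 18790 bp from the nearest Acan start, had 1.43 in replicate 1 and 1.24 in replicate 2. A weaker site in intron 5 (chr7:79089250-79089392) had 0.502 and 0.480 in replicates 1 and 2. No base within 500 bp of the Acan starts had a listed FDR in either library. The nearest peak, at chr7:79052690-79052954 with 0.388 in replicate 1, was centred 661 bp upstream of the GENCODE start. The RefSeq start of Acan lies 257 bp from that start, and the peak is 404 bp from it, so with RefSeq starts Acan would have a promoter peak in replicate 1. Among GENCODE starts that peak is nearest to the neighbour Gm26633, at 501 bp, and it is not in the stricter list. Which gene it serves was not tested.

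Vcan (ENSMUSG00000021614.16), which encodes versican, had its strongest peak region at an internal start. The strongest Vcan peak region, at chr13:89740241-89740760, had 2.23 in replicate 1 and 1.76 in replicate 2 and lies 104 bp from an annotated Vcan start inside intron 1 of the longest transcript. The region at the outermost start, chr13:89742161-89742640, had 0.690 and 0.600 in replicates 1 and 2. A further region, chr13:89739305-89739740, with 1.19 and 0.772, lies 59 bp from the start of the antisense gene Gm4117, and which gene the site serves was not tested. Beyond the first intron, 4 weak Vcan peaks of 0.261 to 0.362 were called in replicate 1 and none there in replicate 2.

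Link proteins fasten lecticans to hyaluronan, and each lectican gene has a link protein gene beside it. Hapln1 and Vcan lie 43659 bp apart, Hapln2 and Bcan 21519 bp, Hapln4 and Ncan 2222 bp and Hapln3 and Acan 2 bp, with 0 protein-coding genes wholly between any pair. Vcan and Hapln1 both had a promoter peak in each library. Ncan had the strongest lectican promoter and Hapln4 had no promoter peak, while Hapln2 had 0.449 in replicate 1 and 0.369 in replicate 2 beside Bcan. Hapln3 had 0.496 in replicate 1 and none in replicate 2. The long gap between Hapln1 and Vcan held 1 peak in replicate 1 and 0 in replicate 2.

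Hapln1 (ENSMUSG00000021613.9) had a weak promoter region and an intronic site with the higher signal in both libraries. The region before its start, chr13:89539181-89539800, had 1.04 in replicate 1 and 0.652 in replicate 2, with 5 footprints in each. The site in intron 1, 8625 bp from the start, had 1.19 in replicate 1 and 1.18 in replicate 2. The RefSeq start of Hapln1 is 840 bp from the nearest GENCODE start, with no peak within 500 bp of it in either library. Hapln4 (ENSMUSG00000007594.10), a link protein gene of neurons, had 1 peak in each library, in intron 4 at chr8:70087861-70088140, with 1.24 and 1.04 in replicates 1 and 2. That peak also falls in the window of Ncan, and it is counted for both genes.

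Tnr (ENSMUSG00000015829.13), which encodes tenascin-R, had the most sites, in the longest window, 428 kb. Its promoter had 2.24 in replicate 1 and 1.47 in replicate 2, with 6 footprints in each library at chr1:159523601-159523860. A second region at chr1:159524101-159524540 had 1.03 in replicate 1 and 1.16 in replicate 2. Of 24 Tnr regions, 12 were called in both libraries and 20 lay in introns 1 and 2. The 8 called in both away from any start had 0.442 to 1.14 in replicate 1 and 0.403 to 1.07 in replicate 2. The highest of them in both libraries lay at chr1:159717041-159717380 in intron 1, with 5 footprints in replicate 1 and 4 in replicate 2. For its length its count was moderately high: it had 17 peaks away from starts in replicate 1 and 9 in replicate 2, a mean of 13 against a median of 9 in 277 genes with windows within 20% of its length, of which 70.8% had fewer.

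Ptprz1 (ENSMUSG00000068748.7) stood at the other end, with peaks at its start alone in a window of 197 kb. The promoter region chr6:22875201-22875580 had 1.52 in replicate 1 and 0.703 in replicate 2, and the next one, chr6:22875681-22876180, had 0.670 and 0.540. No peak away from start sites was called in either library. Among 749 protein-coding genes with windows within 20% of that length, Ptprz1 included, 21, or 2.80%, had none in either library. The median over the 749 genes was 4.5. The FDR track listed 1160 bases of the window in replicate 1 and 900 in replicate 2, of which 1129 and 864 lay within 500 bp of Ptprz1 starts. All 10 footprints of the window in each library were likewise within 500 bp of a start.

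**Figure D2:**
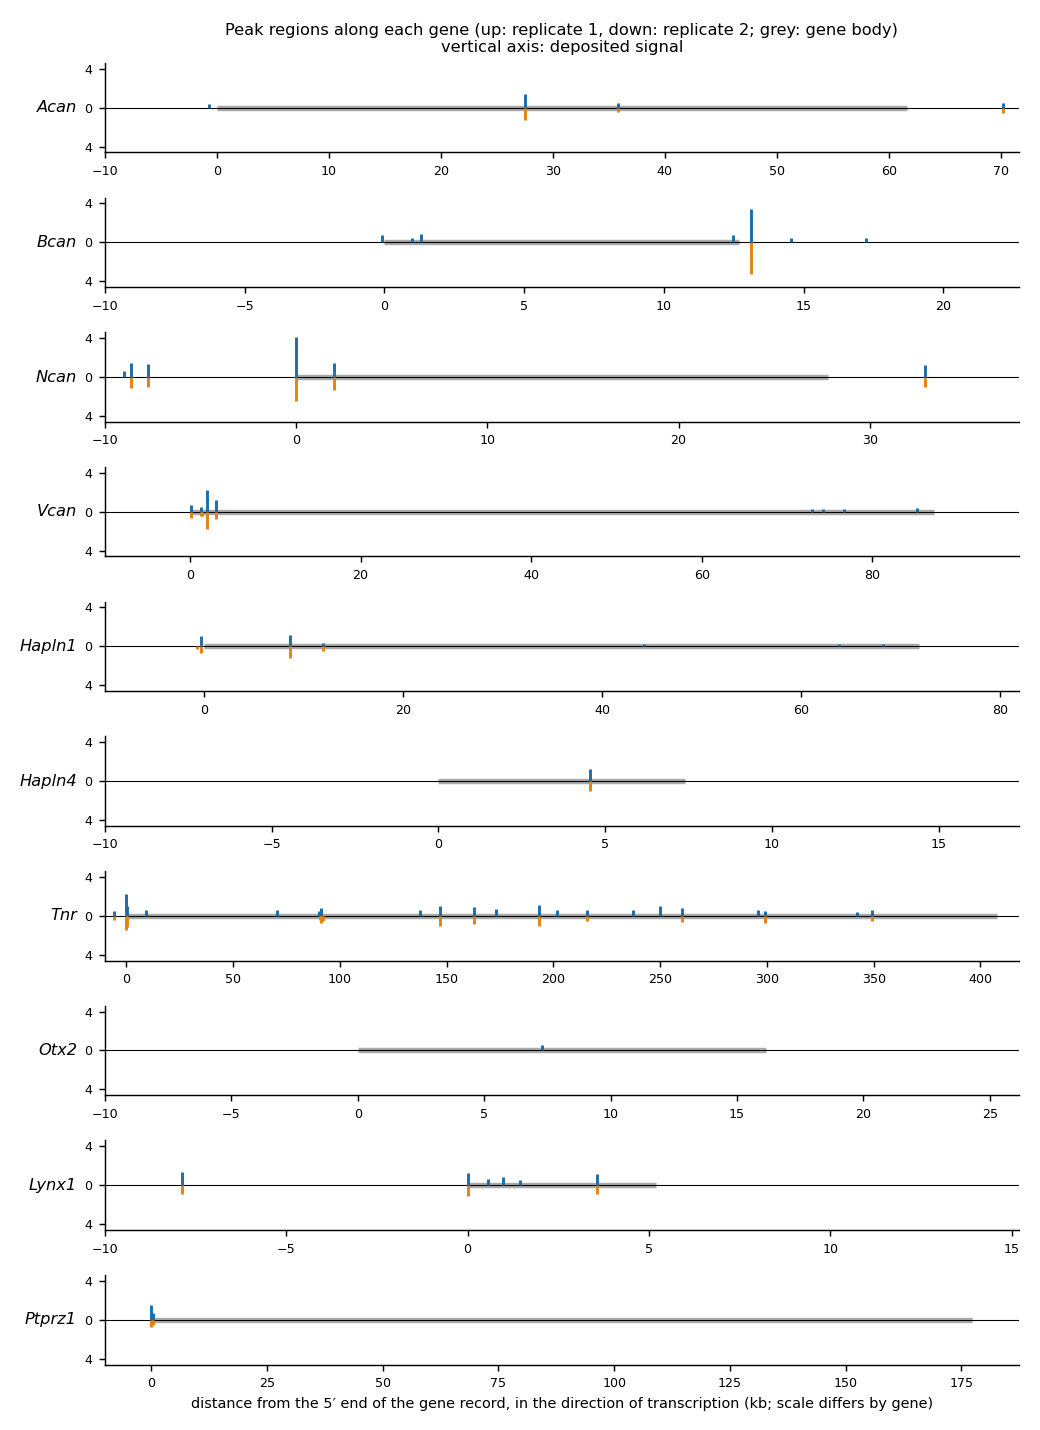
Peak regions along each gene, in kb from the 5′ end of its record in the direction of transcription, with the deposited signal of replicate 1 drawn upward and that of replicate 2 downward, and the gene body in grey. The strong site behind Bcan (3.45 and 3.25), the intron 1 site of Acan (1.43 and 1.24) and the body of Ptprz1 without peaks past its start can be seen.

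Otx2 (ENSMUSG00000021848.16) had the fewest footprints and listed bases of the 10 genes. It had no promoter peak at any of its 10 annotated start sites in either library, and 1 weak peak in intron 2 with 0.542 in replicate 1 and none in replicate 2. The FDR track listed 101 bases of its window in replicate 1 and 0 in replicate 2. Otx2 is made outside the cortex, in the choroid plexus among other places. Of 4 choroid plexus marker genes (Ttr, Kl, Folr1 and Clic6), 0 had a promoter peak in both libraries, beside 58.2% of all genes. Kl had one of 0.295 in replicate 1.

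Lynx1 (ENSMUSG00000022594.14) lies in a cluster of related Ly6 genes and was the most densely accessible of the 10 for its length. Its promoter region, chr15:74752741-74753340, had 1.24 in replicate 1 and 1.06 in replicate 2, with 8 footprints in replicate 1 and 5 in replicate 2. A site in its last exon, in the 3′ UTR (chr15:74749228-74749701), had 1.10 and 0.883 in replicates 1 and 2, and a site 7861 bp upstream (chr15:74760814-74761000) had 1.34 and 0.909. Lynx1 had 5 peaks away from starts in replicate 1 and 3 in replicate 2, a mean of 15.9 per 100 kb. Of 7894 genes with windows of similar length, 95.8% had fewer. Its relatives Slurp2 and Ly6d lie on either side, and which of them each site serves was not tested.

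Across all 10 genes, 8 had a peak away from start sites in both libraries, beside 56.1% of all protein-coding genes. The median was 5 such peaks per gene in replicate 1 and 2.5 in replicate 2, against 1 in each library over all genes. The mean over the libraries had a median of 3.5 for the members and 1 for all genes, which came to 1 and 0.5 with the stricter list and to 1.5 and 0 in the gene body alone. The members' windows are longer, with a median of 64.7 kb against 37.4 kb. Per 100 kb, the median was 3.97 for the members and 2.25 for all genes, and 8 of the 10 lay above the median of all genes, all but Otx2 and Ptprz1. A listed FDR near an own start in both libraries was found for 6 of 10 members, beside 59.8% of all genes.

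**Figure D3:**
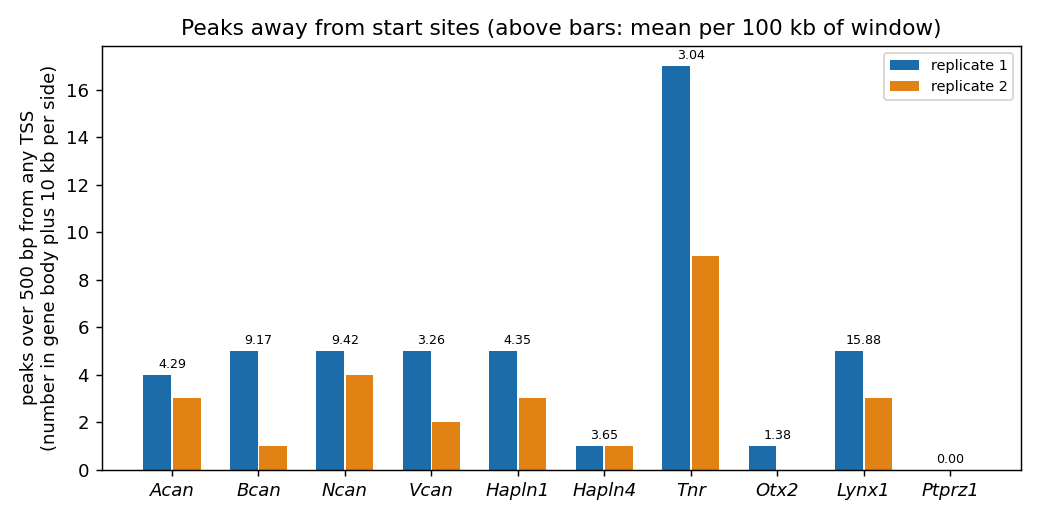
Number of peaks over 500 bp from any TSS in the window of each gene (vertical axis), with 1 bar per library and the mean per 100 kb printed above. Tnr has 17 and 9, Ptprz1 has none, and Lynx1 is densest at 15.9 per 100 kb.

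More sites of these genes were called in replicate 1. Peaks found again in the other library, with an overlap of 1 bp or more, made up 53.2% of the 62 in replicate 1 and 87.5% of the 40 in replicate 2, a mean of 70.4% ± 24.2 (SD, n = 2), against 59.1% and 84.4% of all peaks. Both shares count the same overlap from either side, so their SD does not measure spread between replicates. The merged peaks gave 66 regions, of which 33 were called in both libraries, 29 in replicate 1 alone and 4 in replicate 2 alone. Those called in both had a median of 1.04 in replicate 1, and those called in replicate 1 alone had 0.542, with a range of 0.261 to 0.958. The strength ratio of replicate 1 to replicate 2 had a median log2 value of 0.17 over those 33 regions, against 0.32 ± 0.39 (SD across regions) over 52787 regions genome-wide.

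For 27 of the 33 regions the ratio lay within 1 SD of the genome-wide median. Genome-wide the ratio itself was higher near start sites, with a median log2 value of 0.54 ± 0.36 (SD across 17761 regions) near a TSS and 0.23 ± 0.37 (35026 regions) elsewhere. Set against regions of their own class, 27 of the 33 were again within 1 SD, but not all of them the same. In both comparisons the Ptprz1 promoter region (log2 1.11) had a ratio more than 1 SD above the median. More than 1 SD below it in both were the Tnr regions at chr1:159524101-159524540 (log2 -0.17) and chr1:159822605-159822880 (log2 -0.70). So was a site of the Acan window at chr7:79123589-79123727 (log2 -0.14). That site is 8559 bp past the end of Acan, inside the neighbour Hapln3. The Ncan promoter region (log2 0.73) and a Hapln1 site in intron 1 (log2 -0.12) were outside 1 SD of all regions and inside that of their class. A pair of Tnr regions near the start of Gm10530, with log2 0.09 and 0.01, were outside that of their class alone. The read totals of the libraries are unknown. All signals came in whole multiples of a smallest unit, 0.0067 for replicate 1 and 0.00858 for replicate 2, within 0.05 of a unit.

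**Figure D4:**
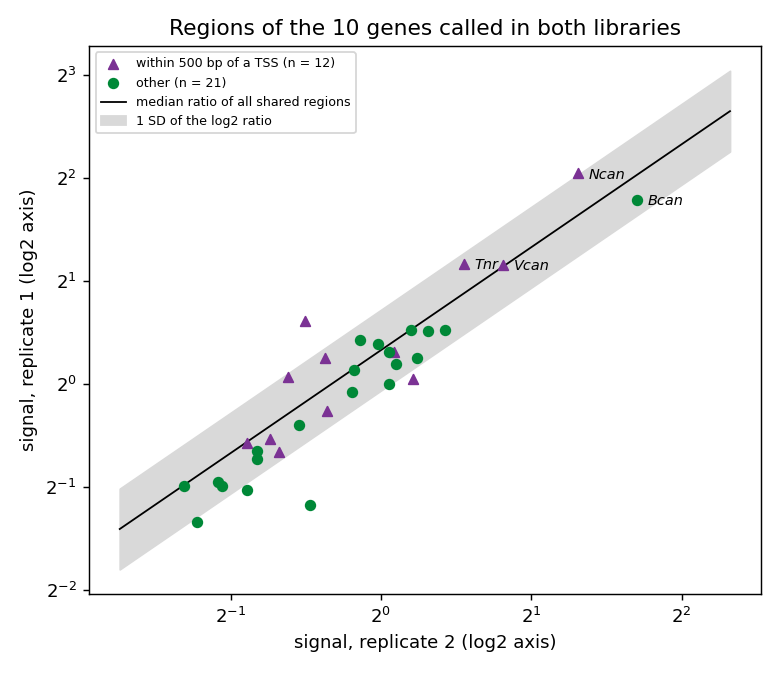
Signal in replicate 1 (vertical, log2 axis) against replicate 2 (horizontal, log2 axis) for the 33 regions called in both libraries, with the median ratio of 52787 shared regions as a line and 1 SD of the log2 ratio as a band. Of the 33 regions, 27 lie in the band, and the promoter region of Ptprz1 is highest above it.

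Footprints were unevenly spread. Tnr had 47 in replicate 1 and 29 in replicate 2, Vcan 24 and 7, Lynx1 19 and 9, Bcan 14 and 6, Ncan 11 in each, Hapln1 11 and 7, Ptprz1 10 in each, Acan 5 and 4, Hapln4 3 and 2, and Otx2 1 and 0. The mean over the libraries had a median of 10 footprints for the members and 8.5 for all protein-coding genes. Per 100 kb of window the members had fewer, with a median of 9.46 against 14.7 for all genes, but their windows are longer. Beside genes with windows within 20% of their length, the members were split in mean footprints over the libraries. Bcan, Ncan, Vcan, Tnr (38 against a median of 24) and Lynx1 (14 against 3.5) had more. Acan (4.5 against 11), Hapln1, Hapln4, Otx2 and Ptprz1 (10 against 16.5) had fewer. Within 500 bp of a TSS lay 56 of 142 in replicate 1 and 42 of 83 in replicate 2. Footprints wholly inside a peak made up 86.6% in replicate 1 and 91.6% in replicate 2, against 85.2% and 86.8% of all footprints. Those that overlapped a footprint of the other library made up 33.1% of the 142 and 59.0% of the 83, against 37.4% and 58.2% genome-wide, so most single footprints of replicate 1 were not found in both.

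**Figure D5:**
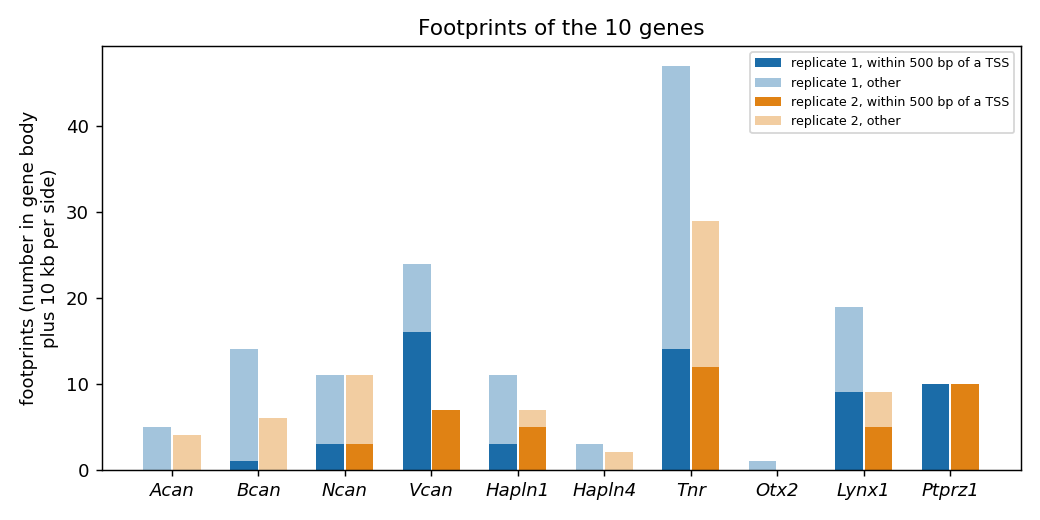
Footprints in the window of each gene (vertical axis, number), with 1 bar per library, dark for those within 500 bp of a TSS and pale for the rest. Tnr has 47 and 29, and all of those at Ptprz1, 10 in each library, are near a TSS.

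The widest protected stretches recurred in both libraries and lay in the printed sequences. In Hapln1 the footprint of the intron 1 site spanned 45 bp in replicate 1 and 42 bp in replicate 2. Behind Bcan there were a pair of wide footprints, of 43 and 30 bp in replicate 1 and 39 and 43 bp in replicate 2. In Acan the intron 1 footprint spanned 26 bp in replicate 1 and 40 bp in replicate 2, and at the Ncan start it spanned 36 bp in each. Before the Tnr start it spanned 43 bp in replicate 1 and 22 bp in replicate 2. The median footprint of these genes was 9 bp in each library.

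Matches to 19 consensus sequences were sought on both strands of the 66 regions. The consensus of CTCF, an insulator protein, matched once, behind Bcan at chr3:87987143-87987155, inside a footprint in both libraries. When 1 mismatch was allowed, 7 matches were found, of which 5 lay inside a footprint in both libraries. These were the match named above, another behind Bcan at chr3:87987066-87987078, and those in Acan intron 1 (chr7:79080972-79080984), in Hapln1 intron 1 (chr13:89548391-89548403) and 53 bp before the Tnr start (chr1:159523704-159523716). The looser consensus is common: in 200 bp windows centred on regions called in both libraries it was held by 3 of 21 member regions away from start sites, beside 30.6% of 35026 such regions, and by 1 of 12 near start sites, beside 6.94% of 17761. How often such matches lie inside footprints over all regions is not given, and the mismatch was allowed after the data were seen. A match is a description of the letters and does not show that the protein is bound.

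At Ncan, the consensus of NRF1, a factor of many broadly used promoters, stood at chr8:70120874-70120883, directly before the GENCODE start and inside a 36 bp footprint in both libraries. It was found in 1 of 12 member regions near start sites, beside 1.42% of all such regions, and in 0.971% of 32851 RefSeq promoters. At Tnr, a match to a loose MEF2-like pattern, which allows any letters in its middle, lay at chr1:159523715-159523724. It overlapped both the CTCF-like match and a footprint in each library. The same loose pattern was in 1 of 12 member regions near start sites, beside 1.68% of all such regions. Because its middle letters were left open, the match does not show a MEF2 site. At the Lynx1 promoter, 2 matches to GGGCGG, the letters that SP and KLF factors bind, overlapped footprints in both libraries. They were the only 2 to do so of 20 such matches in all member regions. That motif was in 4 of 12 member regions near start sites, beside 50.4% of all such regions. The OTX letters TAATCC stood in 1 of 21 member regions away from start sites, beside 4.62%, and overlapped no footprint in either library.

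Genes that make chondroitin sulfate had promoter peaks in both libraries for 13 of 14 members, beside 58.2% of all protein-coding genes, and for 11 with the stricter list, beside 51.8%. The strongest by mean were Chst12, a sulfotransferase, with 6.39 in replicate 1 and 2.68 in replicate 2, and Chpf, a polymerizing factor, with 5.53 and 2.95. Chst11 had the most peaks away from starts, 22 and 17 in replicates 1 and 2, and Chst13 had no promoter peak. Among genes for hyaluronan synthesis, breakdown and receptors, 5 of 8 had a promoter peak in both libraries, near the 58.2% of all genes, and 4 with the stricter list, beside 51.8%. Cemip2 led with 4.43 and 2.86, Cemip followed with 2.85 and 1.41 and had the most peaks away from starts, 8 in each library, and the synthase gene Has1 had no promoter peak.

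The list of other link proteins, tenascins and proteoglycans also held Fbln1, Fbln2 and Crtac1, which are none of these. Of its genes, 7 of 9 had a promoter peak in both libraries, beside 58.2% of all genes. With the stricter list, however, 3 of 9 did, beside 51.8%. Gpc5, a glypican, had 3.66 in replicate 1 and 1.41 in replicate 2, and Crtac1 had 2.86 and 1.48, with 14 and 10 peaks away from starts. Cspg4, which encodes NG2, had no promoter peak. Matrix proteases and their inhibitors stood at 10 of 15, beside the same 58.2%, and at 6 of 15 with the stricter list, beside 51.8%. They were led by Plat, tissue plasminogen activator, with 3.34 and 2.03, and Timp2, a protease inhibitor, with 2.37 and 1.17. Adamts9 had the most peaks away from starts there, 6 and 5, and Adamts5, Mmp2 and Mmp3 were among the 5 genes without a promoter peak.

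Receptors of proteoglycans and myelin inhibitors stood at 8 of 13, near the 58.2% of all genes, and at 6 of 13 with the stricter list, beside 51.8%. Ptprs, a phosphatase that binds chondroitin sulfate, had 6.04 in replicate 1 and 2.95 in replicate 2, and Rtn4, which encodes Nogo, had 4.85 and 3.04. The Nogo receptor genes Rtn4r, Rtn4rl1 and Rtn4rl2 had a promoter peak in replicate 1 alone, with 0.844, 1.37 and 0.743, and Mag and Pirb had none. Lingo1 and Plxna4 had the most peaks away from starts, 22 and 21 in replicate 1 and 11 and 12 in replicate 2. Nicotinic receptor, Ly6 and interneuron maturation genes stood at 13 of 16, beside 58.2%, and at 9 of 16 with the stricter list, beside 51.8%. They were led by Gadd45b, with 7.38 and 3.63, and Nptx2, with 2.46 and 1.42. Otx1, the relative of Otx2 expressed in cortex, had 1.21 and 0.806 at its promoter and 19 and 17 peaks away from starts. Over all 6 lists, both libraries had a promoter peak for 56 of 75 genes, replicate 1 alone for 9 and neither for 10, which is 74.7% in both, beside 58.2% of all genes. With the stricter list 39 of 75 had one in both, which is 52.0% and near the 51.8% of all genes.

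Marker genes were read to check the labelled tissue. Of the cortical and neuronal genes, Tbr1 had a promoter peak of 0.958 in replicate 1 and 0.892 in replicate 2, Rbfox3 had 1.27 and 0.558, and Syt1 had 3.56 and 1.63. Emx1 had 1.04 in replicate 1 and no promoter peak in replicate 2. Of the genes of other brain regions En1, En2, Gbx2, Hoxb3 and Hoxd3, 0 of 5 had one in both, and En2 had 0.395 in replicate 1. Of the inhibitory neuron genes Pvalb, Gad1, Gad2, Kcnc1, Lhx6 and Sst, 3 of 6 had one in both. These were Pvalb (0.938 in replicate 1 and 0.609 in replicate 2), Gad2 (0.690 and 0.729) and Kcnc1 (1.69 and 1.24). Gad1 had 0.871 in replicate 1 alone, and Lhx6 and Sst had none in either library. Counts in both libraries were 3 of 5 for astrocytes, 1 of 4 for oligodendrocyte precursors and 0 for the 4 myelinating oligodendrocyte, 5 microglia and 4 endothelial and mural genes. These list counts stand beside 58.2% of all protein-coding genes, which the inhibitory neuron and astrocyte counts are near. With the stricter list, 1 of 6 inhibitory neuron, 2 of 5 astrocyte and 1 of 4 precursor genes had one in both, beside 51.8%. In replicate 1 alone, Olig2 of the precursor genes had 0.978, Mbp of the myelin genes 1.21 and Cx3cr1 of the microglia genes 0.415. Which cell types the sites of the net genes come from was not tested.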

How the data were processed

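DNase-seq peaks, footprints and FDR tracks of 2 frontal cortex libraries were used as deposited. Per the deposited notes, each file was made by the authors from 1 library aligned to mm10, without pooling. No aligner, caller, version or filter is named in those notes or labels, and how reads of the CAST/EiJ allele fared in alignment to mm10 was not tested. Peak strength is the deposited signal, which the authors' notes call depth-normalized without naming a scale. In the deposited track the FDR, a q-value for the cut rate, is listed up to 0.05. Footprints carry a constant, so their positions alone were used. The longer of 2 peak lists was used, and the shorter, whose threshold is not stated, was the stricter alternative.

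Start sites and genes came from GENCODE M21, and 0 peaks reached past a chromosome end of GRCm38. A peak or footprint belonged to a gene when its midpoint lay in the gene body plus 10 kb per side, and to a promoter when within 500 bp of a TSS. Regions are merged peaks of both libraries, each with its strongest peak per library. Introns are numbered in the longest protein-coding transcript. With 1 group of 2 libraries no test was possible, so members are set beside all protein-coding genes. The members, the 6 gene lists and the motifs were chosen with earlier results of these data known. Genes named from each list were the 2 with the strongest promoters, the 1 with most peaks away from starts (2 where tied) and up to 3 without a promoter peak, and further genes were named after their values were seen. So were the ratios by class of region, the all-gene medians under other settings, the RefSeq starts, the CTCF mismatch, the gaps between neighbouring genes and the genes of like length. RefSeq promoters matched 8 of 10 members. Some marker genes are not reported here. Motifs, besides the CTCF, NFI dimer, NRF1, MEF2 and RFX consensus, were the short NFI site TTGGCA, the CREB site TGACGTCA with its short form TGACGT, the AP-1 site TGANTCA, the EGR site GCGTGGGCG, the SP and KLF site GGGCGG, the neurogenic E-box CAGATG, the E-box CAGCTG, the OTX site TAATCC, the homeodomain site TAATTA, the SOX site ACAATG, the NFY site CCAAT, the POU site ATGCAAAT and the ETS site CCGGAAG. The MEF2 pattern was a loose form that allows any letters in its middle. Tools were numpy 2.4.6, pandas 2.3.3, pysam 0.24.0, matplotlib 3.10.9 and bedtools 2.31.1. The 6 interval functions were tested on simulated data and were right in every case. The test used 3000 intervals, or a smaller set of windows for the count per gene. As alternatives, the stricter list, the same number of top peaks per library, each library alone, other start sites, windows and flanks, stricter overlap and footprints in peaks were tried.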

Additional observations from a re-analysis of the deposited data

How the results depend on the processing

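Of 38 alternative values, 33 stayed within 1.5 times the main count of genes or, for medians and shares, within 1 SD between libraries or regions, and 5 moved further. For a share averaged over both libraries, each library alone lies within 1 SD by construction, so those alternatives are no check. The log2 ratio, the one value with a sign, kept it in its 4 alternatives. The count of 6 promoters in both libraries ranged from 6 to 7 with 1 library left out and was 6 under every other alternative run for it, which includes the stricter list, both other TSS rules, RefSeq starts (chosen after seeing the data) and a 1000 bp window. Leaving out a library, overlap with the TSS window, added RefSeq starts or the 1000 bp window could not lower that count. The median of 3.5 peaks away from start sites per gene moved to 1 with the stricter list and to 1.5 in the gene body alone, and ranged from 2.5 to 5 with 1 library left out. The median of 10 footprints per gene moved to 4 in the gene body alone and to 7 without replicate 1, and was 11 without replicate 2. The share of footprints inside a peak, 89.1%, moved to 58.6% with the stricter list, which holds fewer peaks, and ranged from 86.6% to 91.6%. The share of shared peaks ranged from 53.2% to 87.5% with 1 library left out. The log2 ratio between libraries ranged from 0.12 to 0.24. Read totals are unknown, and the part of depth in sites called in 1 library alone was not tested. No paired analysis was possible because the labels give 1 group.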
